A study of Mus musculus with 195 samples.

Results

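The proteasome genes are the 50 protein-coding mouse genes whose annotation symbol begins with Psma, Psmb, Psmc, Psmd, Psme, Psmf or Psmg, taken from 22028 protein-coding genes of GENCODE M21 on GRCm38. Of these, 48 have a row in the deposited gene table of 19736 genes, and each of the 48 had at least 1 molecule in the cells kept. Psmb9 and Psmb11 have no row and were counted as 0. The proteasome degrades proteins tagged with ubiquitin. Its 20S core is a barrel of outer alpha rings, which gate the entry, and inner beta rings, which cut the substrate, and the 19S particle on its ends recognises, deubiquitinates and unfolds the substrate through a base with ATPases and a lid. Other members activate or inhibit the core or help to assemble either part, and stem cells depend on the complex for protein quality control.

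BATSeq counts, in single cells, transcript molecules by unique molecular identifiers at the polyadenylation (PA) site where each transcript ends. It was applied to 48 cells each of 3 populations of the 46C mouse line, embryonic stem cells that carry a GFP reporter of Sox1, and all were sorted as small cells in G0/G1. ESC-2i were grown with 1 µM PD0325901, 3 µM CHIR99021 and 10 ng/ml LIF, and ESC-FCS with 10% serum and 10 ng/ml LIF. NSC, neural stem cells derived from the same line, were grown with EGF and bFGF in medium with N2 and B27. The ESC-2i medium also held N2 and B27. The gene table holds 33 ESC-2i, 33 ESC-FCS and 41 NSC cells, in 2 library batches per population, assigned by plate row. No label names separate cultures, so each population was taken as 1 sample. Populations are therefore compared by values and not by p-values, with 95% intervals that cover counting error only.

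A level is the number of molecules of a gene in all cells of a population per 10000 molecules on genes. Since each captured transcript gives 1 molecule at its 3′ end, levels of different genes were compared without scaling by length. Differences in capture between genes were not corrected. The populations held 368362 (ESC-2i), 226683 (ESC-FCS) and 151877 (NSC) molecules, with medians per cell of 10864, 6375 and 3282. A count of 0 therefore allows a level of up to 0.0814, 0.132 and 0.198, by 3 molecules. Of 9 embryonic stem cell markers all were detected in both ESC populations, with summed levels of 30.9 and 26.1, against 2 molecules in NSC. The 8 neural stem cell markers summed to 51.1 in NSC, 1.93 in ESC-2i and 1.46 in ESC-FCS.

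Together the proteasome genes held close to 1% of all molecules in the cells kept, and among these cells this share differed little between the populations. The 50 genes had 3550 molecules in ESC-2i, a level of 96.4 (interval 93.2 to 99.6), with 96.7 and 96.1 in its library batches. In ESC-FCS they had 2205 molecules, a level of 97.3 (93.3 to 101.4), with 98.8 and 95.2 in the batches. The 1333 molecules in NSC gave a level of 87.8 (83.1 to 92.6), with 87.2 and 88.4 in the batches. Both ESC populations overlapped, while both NSC batches lay below all ESC batches. The NSC share was 0.911 times that of ESC-2i (interval 0.855 to 0.970). Genes of the mitochondrial genome held 5.09% of the molecules in NSC, 1.72% in ESC-2i and 1.95% in ESC-FCS cells. Without them the NSC share was 0.943 times that of ESC-2i (0.885 to 1.005), an interval that included 1, and 0.932 times that of ESC-FCS (0.870 to 0.998).

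What differed was the balance between the parts of the complex. The 14 genes of the 20S core, Psma1 to Psma7 and Psmb1 to Psmb7, had 1.29 molecules for each molecule of the 17 genes of the 19S particle in ESC-2i (interval 1.20 to 1.39). This ratio was 1.71 in ESC-FCS (1.55 to 1.88), and NSC had 1.68 (1.49 to 1.90). The library batches had ratios of 1.38 and 1.21 (ESC-2i), 1.70 and 1.72 (ESC-FCS), and 1.65 and 1.71 (NSC). Both ESC-2i batches were thus below all 4 others. A ratio inside a library does not depend on the scaling between populations.

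In the cells of the gene table, the 19S particle was lower as a share of molecules in ESC-FCS and NSC than in ESC-2i. Summed over its genes, the 19S particle had levels of 36.8 (ESC-2i), 30.6 (ESC-FCS) and 27.9 (NSC). ESC-FCS stood at 0.830 times the ESC-2i level (interval 0.756 to 0.910) and NSC at 0.758 times (0.678 to 0.846). The 20S core had levels of 47.5 (ESC-2i), 52.2 (ESC-FCS) and 46.9 (NSC), and ESC-FCS was 1.10 times ESC-2i (1.02 to 1.18). Which side moves depends on the scaling. Per molecule of the ERCC spike-in RNA, ESC-FCS was 2.26 times ESC-2i for the 20S core and 1.71 times for the 19S particle, so the direction for the 19S particle turned, while NSC was at 0.802 and 0.616 times ESC-2i. Within the 19S particle, the base of 9 genes was 0.782 times the ESC-2i level in ESC-FCS (0.691 to 0.883) and 0.784 times in NSC (0.680 to 0.901). For the lid of 8 genes the values were 0.903 (0.781 to 1.04) and 0.719 (0.599 to 0.859), so the ESC-FCS interval included 1. Sem1, a small lid subunit outside the naming rule, is in neither the lid nor the 19S sum. It had 83 molecules in ESC-2i and 61 in NSC, a ratio of 1.78 (1.26 to 2.51), beside 540 and 160 for the 8 lid genes. With Sem1 the lid and 19S ratios of NSC to ESC-2i would lie nearer to 1, so the values hold for the genes counted. The beta ring held 2.00, 1.95 and 2.24 molecules per alpha ring molecule in ESC-2i, ESC-FCS and NSC, and those intervals overlapped.

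**Figure D1:**
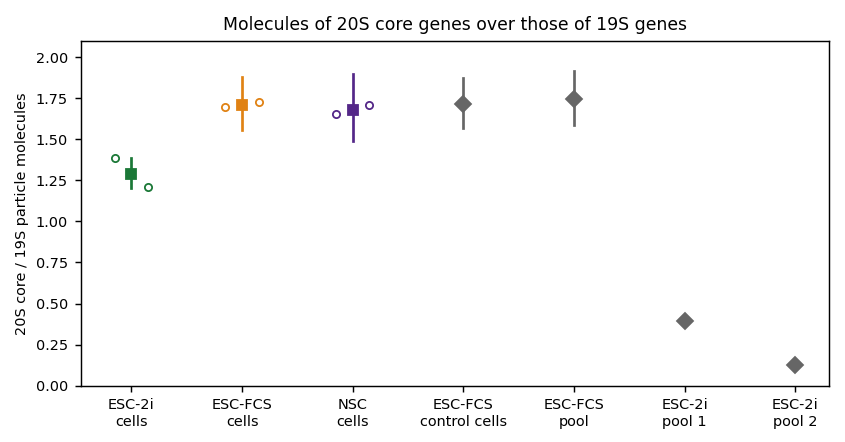
Molecules of the 14 genes of the 20S core divided by those of the 17 genes of the 19S particle, without Sem1 and Adrm1. Filled squares are pooled cells, open circles the library batches, diamonds the libraries prepared apart, and bars 95% counting intervals; ESC-2i cells are at 1.29 and the other cell populations at 1.71 and 1.68, while the ESC-2i pools lie at 0.394 and 0.124.

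The libraries prepared apart did not all repeat these values. All members together had a level of 110.2 in ESC-FCS control cells and 123.1 in the ESC-FCS pool. In the ESC-2i pools it was 113.4 and 86.5. Their intervals lay outside those of the main cells of the same condition, and libraries of 1 condition differed more than the populations did. In 42 of 48 further ESC-FCS control cells the ratio of 20S core to 19S particle was 1.71, and in a pool of 48 ESC-FCS cells it was 1.74. In the pools of 48 ESC-2i cells it was 0.394 and 0.124, far below ESC-2i single cells. The 20S core level in these pools was 27.9 and 8.29, against 47.5 in the cells, while the 19S level was 70.8 and 66.7. In the ESC-FCS control cells and the ESC-FCS pool the 20S core level was 61.5 and 68.1, and the 19S level 35.9 and 39.1. Both 19S levels lay above the 30.6 of ESC-FCS cells and near or above the 36.8 of ESC-2i cells. The lower 19S share of ESC-FCS cells was thus not repeated there.

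Transcript length moved with the pools. Among 1209 genes with at least 100 molecules, pool 1 differed from ESC-2i cells by a median of -2.57 on the log2 scale (pseudocount 0.05) in the fifth of genes with the shortest transcripts and by 0.47 in the fifth with the longest. In pool 2 these medians were -4.31 and 0.83. The ESC-FCS control cells and the ESC-FCS pool differed from ESC-FCS cells in the same direction but by less, with medians of -0.47 and 0.18 and of -0.65 and 0.33, and their ratios of 20S core to 19S particle were the 1.71 and 1.74 given above. The 20S core genes are short, with a median longest coding transcript of 1162.5 nt, against 1819 nt for the 19S particle. Between ESC-FCS and ESC-2i cells, Spearman's rho of the log2 ratio with length was 0.0062 over the 1209 genes and -0.16 over the 29 members among them. For NSC against ESC-2i cells the values were 0.038 and -0.33. These are descriptions across genes, which are not independent, and the part of length in the differences between cells was not tested.

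Core members did not have equal levels, though capture may differ between genes, and that was not tested. In ESC-2i the 7 genes of the alpha ring spanned 17.4-fold, from Psma3 to Psma2, and the 7 of the beta ring 3.87-fold, from Psmb2 to Psmb1. Together the 14 core genes ran from 0.271 for Psma3 to 8.31 for Psmb1, a 30.6-fold range, with a median of 3.05. The 17 genes of the 19S particle spanned 3.38-fold, from 1.06 for Psmd7 to 3.58 for Psmc3. Detected members had a median level of 1.74, 1.74 and 1.58 in ESC-2i, ESC-FCS and NSC, against 0.163, 0.176 and 0.263 over all detected genes.

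**Figure D2:**
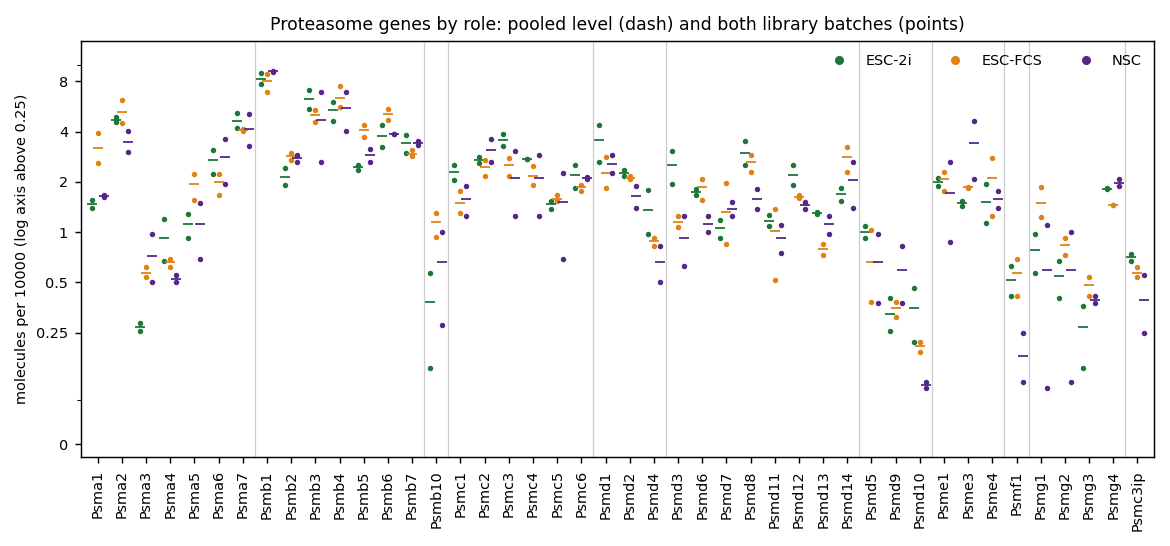
Levels of the members with at least 20 molecules, in molecules per 10000 on a log axis above 0.25, ordered by role with grey lines between roles. Dashes are pooled cells and points the library batches; Psmb1 was highest in all 3 populations, at 8.31, 8.07 and 9.22.

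The 5 members with most molecules were all core subunits. Psmb1, a beta subunit without a catalytic site, had 629 molecules and levels of 8.31 in ESC-2i, against 8.07 in ESC-FCS and 9.22 in NSC. Psmb4, also without catalytic activity, was at 5.38, 6.40 and 5.53, and Psmb3, of the same kind, at 6.24, 5.03 and 4.67. The alpha subunits Psma2 and Psma7 followed, Psma2 with 4.72, 5.25 and 3.49 and Psma7 with 4.64, 4.10 and 4.15. None of these differed past 1.5-fold from ESC-2i in either population.

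Psma1, Psma3 and Psma5 were the alpha genes higher in ESC-FCS. Psma1 was at 1.55 and 1.39 in the batches of ESC-2i, 2.61 and 3.94 in ESC-FCS, and 1.63 and 1.66 in NSC. It was 2.17-fold higher in ESC-FCS than in ESC-2i (interval 1.5 to 3.14). Psma5 was at 0.917 and 1.29 in ESC-2i and 2.23 and 1.56 in ESC-FCS, 1.74-fold higher (1.11 to 2.74). Psma3 had few molecules, 10 in ESC-2i, against 13 in ESC-FCS and 11 in NSC, and ratios to ESC-2i of 2.11 (0.856 to 5.38) and 2.67 (1.03 to 7.01). Psma4 was the alpha gene lower in NSC, with 8 molecules against 34 in ESC-2i, a ratio of 0.571 (0.228 to 1.26). The other alpha gene of the ring, Psma6, was at 2.69, 1.99 and 2.83.

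The catalytic subunits differed in how they varied. Psmb5, which carries the chymotrypsin-like activity, was at 2.52 and 2.37 in the batches of ESC-2i, 4.38 and 3.73 in ESC-FCS, and 3.13 and 2.64 in NSC. It was 1.68-fold higher in ESC-FCS than in ESC-2i (1.24 to 2.27), with no overlap of batches. Psmb6, with the caspase-like activity, was at 4.36 and 3.25 in ESC-2i, against 5.45 and 4.67 in ESC-FCS and 3.89 and 3.88 in NSC, a ratio of 1.36 for ESC-FCS (1.05 to 1.75) that stayed inside 1.5-fold. Psmb7, with the trypsin-like activity, was at 3.42, 2.96 and 3.42, and its 3 intervals overlapped.

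Of the subunits that interferon induces in place of the catalytic ones, only Psmb10 was detected in each population. It replaces Psmb7 and had 14 molecules in 11 of 33 ESC-2i cells, 26 in 16 of 33 ESC-FCS cells and 10 in 8 of 41 NSC. Its batches were at 0.172 and 0.567 in ESC-2i, against 1.31 and 0.933 in ESC-FCS, and 1.00 and 0.277 in NSC, so the ESC-FCS batches lay above those of ESC-2i. The ratio of ESC-FCS to ESC-2i was 3.02 (1.52 to 6.25). Psmb8, which replaces Psmb5, had 2 molecules, both in 1 ESC-FCS cell, and Psmb9, which replaces Psmb6, had none. The thymus subunit Psmb11 had none, and Psma8, an alpha subunit of the testis, had 10 molecules in ESC-2i, against 8 in ESC-FCS and 0 in NSC.

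The genes around antigen presentation gave little to set beside them. Of 8 listed genes 7 were in the table and 2 had the 20 molecules needed to compare ESC-FCS with ESC-2i, with neither past 1.5-fold. B2m, the light chain of MHC class I, was at 0.516 in ESC-2i, against 0.573 in ESC-FCS and 2.70 in NSC, 5.23-fold higher in NSC than in ESC-2i (2.97 to 9.55).

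Counted gene by gene, the members that differed between ESC-FCS and ESC-2i lay in both rings of the core and in the base and lid. A member was called when its levels differed by at least 1.5-fold and it had at least 20 molecules in both populations together. Of 43 members tested 15 were called, 9 higher and 6 lower in ESC-FCS, which is 34.9% against 45.2% of the 5007 genes tested. Over all genes 19.1% were higher and 26.2% lower. In 13 of the 15 members the library batches did not overlap, 9 higher and 4 lower, against 36.7% of all genes, 15.2% higher and 21.5% lower. In 9 the counting interval excluded 1, for 6 higher and 3 lower members, against 24.2% of all genes, 10.2% higher and 14.0% lower. The median log2 ratio was -0.04 over the members and -0.07 over all genes.

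Apart from Psma1, Psma3, Psma5, Psmb5 and Psmb10, the higher members were Psmd14 and the core chaperones Psmg1, Psmg2 and Psmg3, but not Psmg4. Psmd14, the deubiquitinase of the lid, was at 1.83 and 1.55 in the batches of ESC-2i and 3.22 and 2.28 in ESC-FCS, 1.68-fold higher (1.16 to 2.42). Psmg1, which pairs with Psmg2 to assemble the alpha ring, was at 0.573 and 0.980 in ESC-2i and 1.23 and 1.87 in ESC-FCS, 1.91-fold higher (1.13 to 3.24). The ESC-FCS control cells and the ESC-FCS pool did not repeat this, with Psmg1 at 0.672 and 0.726, below both ESC-FCS batches. Psmg2 and Psmg3 had 20 and 10 molecules in ESC-2i, and their ratios of 1.54 (0.779 to 3.05) and 1.79 (0.689 to 4.69) had intervals that included 1. In the ESC-FCS control cells and pool Psmg2 was at 0.897 and 0.447 and Psmg3 at 0.179 and 0.167, both overlapping the ESC-2i pools. Psmg3 overlaps Gm26938 on the same strand, which leaves its count uncertain. Psmg4, which acts with Psmg3, was at 1.82, 1.46 and 1.98.

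The lower members in ESC-FCS were all of the 19S particle or its chaperones. They included 5 of the 17 tested genes of the 19S particle, while 26.2% of all genes were lower, so this count is near the share over all genes. Psmd3, a scaffold subunit of the lid, was at 1.95 and 3.04 in the batches of ESC-2i, 1.07 and 1.24 in ESC-FCS, and 0.627 and 1.25 in NSC. Its ratio to ESC-2i was 0.454 in ESC-FCS (0.282 to 0.708) and 0.365 in NSC (0.192 to 0.644). Both comparisons share the ESC-2i cells. Psmc1, a base ATPase, was at 2.06 and 2.53 in ESC-2i and 1.31 and 1.76 in ESC-FCS, a ratio of 0.650 (0.423 to 0.978). Psmd4, a ubiquitin receptor of the base, had ratios of 0.650 in ESC-FCS (0.367 to 1.11) and 0.485 in NSC (0.219 to 0.968), and Psmd13, of the lid, had 0.609 in ESC-FCS (0.334 to 1.07). Psmd1, the largest scaffold of the base, had 0.633 (0.449 to 0.881) but its batches overlapped, and so did those of the base chaperone Psmd5, at 0.659.

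Single library batches and the scaling moved some of these calls. Without ESC-2i batch 1, the ratio of ESC-FCS to ESC-2i was 0.901 for Psmd4 and 1.25 for Psmg2, both inside 1.5-fold. Without ESC-FCS batch 1 it was 1.40 for Psma5, 1.36 for Psmd14, 1.34 for Psmg2 and 0.764 for Psmc1, which also passed inside without ESC-2i batch 2, at 0.727. Psmd4 was at 0.679 without ESC-FCS batch 2, and Psmb10 at 6.67 without ESC-2i batch 2. Among libraries prepared apart, both of ESC-FCS lay above both ESC-2i pools for 5 of the 9 higher members and overlapped them for 4. For all 6 lower members they lay below. Over all genes 32.2% lay above and 39.4% below. The ESC-2i pools held few short transcripts, so these libraries cannot separate growth condition from transcript length. Per ERCC molecule in place of per molecule on genes, all genes shifted by a median of 1.04 on the log2 scale, and 35 members were higher and 0 lower in ESC-FCS. The calls are therefore statements about shares of the transcripts seen.

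**Figure D3:**
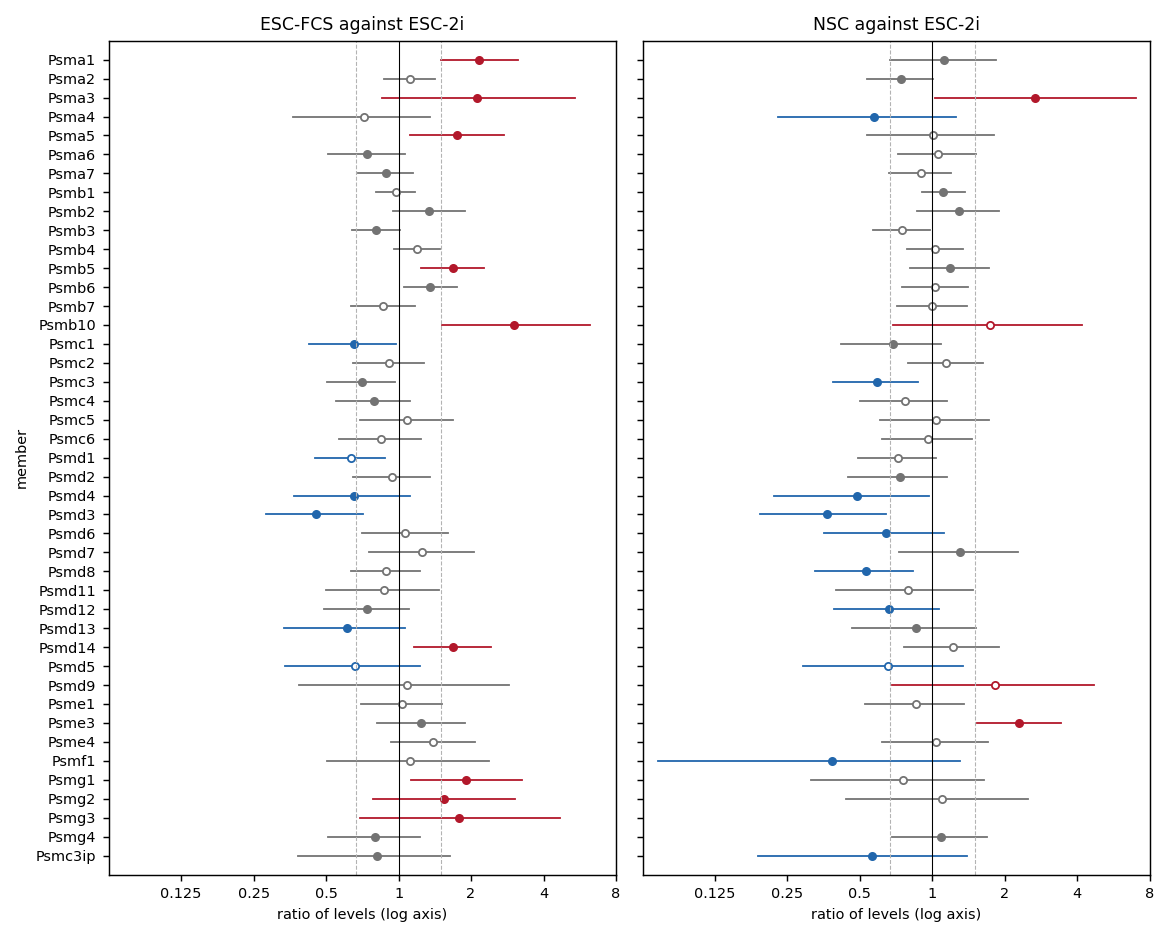
Ratio of levels of each tested member in ESC-FCS (left) and NSC (right) to ESC-2i, on log axes with 95% counting intervals. Red marks members at least 1.5-fold higher and blue at least 1.5-fold lower, filled points have library batches that do not overlap, and dashed lines mark 1.5-fold; Psmd3 is lowest on the left at 0.454.

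Between NSC and ESC-2i, 14 of 42 members were called, 4 higher and 10 lower, which is 33.3% against 63.8% of 4803 genes, 30.1% higher and 33.7% lower. Without library batch 1 of ESC-2i the count was 8, while leaving out another batch raised it above 14. In 11 the library batches did not overlap, against 53.9% of all genes, and in 6 the interval excluded 1, against 41.8%. The median absolute log2 ratio was 0.38 over the members and 0.85 over all genes. Per ERCC molecule the split was 2 higher and 18 lower.

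Psme3 was higher in NSC than in both ESC populations. It encodes the nuclear activator PA28 gamma, and was at 1.43 and 1.55 in the batches of ESC-2i, 1.84 and 1.87 in ESC-FCS, and 4.64 and 2.08 in NSC. It was 2.29-fold higher in NSC than in ESC-2i (1.54 to 3.41) and 1.85-fold higher than in ESC-FCS (1.21 to 2.84). NSC batch 1 carries much of this, and without it the log2 ratios were 0.48 and 0.17. Psme4, the activator PA200, was at 1.52, 2.12 and 1.58, and Psme1, a subunit of the interferon-induced activator, at 2.01, 2.07 and 1.71. The other members higher in NSC than in ESC-2i were Psma3, Psmb10 at 1.73-fold (0.688 to 4.19) and the base chaperone Psmd9 at 1.82-fold (0.677 to 4.70), the last of which had overlapping batches, as had Psmb10.

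Of the 10 lower members in NSC, 6 were of the 19S particle, Psmd3 and Psmd4 among them. These were 6 of its 17 tested genes, while 33.7% of all genes were lower, so this count is near the share over all genes. Psmd8, of the lid, was at 3.5 and 2.53 in the batches of ESC-2i, 2.92 and 2.28 in ESC-FCS, and 1.38 and 1.80 in NSC, a ratio of 0.529 to ESC-2i (0.325 to 0.829). Psmc3, a base ATPase, was at 3.27 and 3.87 in ESC-2i and 1.25 and 3.05 in NSC, a ratio of 0.588 (0.387 to 0.871). The lid genes Psmd6 and Psmd12 had ratios of 0.644 (0.354 to 1.11) and 0.659 (0.391 to 1.07). Psmf1, which inhibits the core, had 3 molecules in NSC against 19 in ESC-2i (ratio 0.383, interval 0.0726 to 1.30). Psmc3ip, which is no subunit but a recombination factor named for binding Psmc3, had 6 against 26. The base chaperone Psmd5 had a ratio of 0.656 with overlapping batches. Without ESC-2i batch 1 the ratios of Psma4, Psmd4 and Psmd12 were 0.786, 0.672 and 0.759, inside 1.5-fold. Without NSC batch 1 those of Psmc3, Psmd6, Psmd12 and Psmc3ip were 0.851, 0.718, 0.694 and 0.786, and without ESC-2i batch 2 Psmd6 was at 0.673. Without NSC batch 2, Psmc3 was at 0.350 and Psmc3ip at 0.355.

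Between NSC and ESC-FCS, 8 of 39 members were called, 1 higher and 7 lower, which is 20.5% against 58.4% of 3600 genes, 30.8% higher and 27.6% lower. In 7 the library batches did not overlap, against 50.0% of all genes, and in 5 the interval excluded 1, against 39.7%. Without library batch 2 of NSC the count was 13, and per ERCC molecule 0 were higher and 38 lower. Psme3 was the higher one. Psmg1 was at 0.13 and 1.11 in the batches of NSC, a ratio of 0.395 to ESC-FCS (0.167 to 0.841), and its ESC-FCS batches lay above both. The ratio was 0.740 without NSC batch 1, inside 1.5-fold, and 0.0836 without NSC batch 2. Psma1 had a ratio of 0.518 (0.315 to 0.827), Psmd8 of 0.597 and Psmd6 of 0.604. Psma5 stood at 0.577 and Psmb10, whose batches overlapped, at 0.574, and Psma2, at 0.665, was the member nearest the limit. Psmc1, at 0.685 in NSC against ESC-2i, was the nearest on the other side. Without ESC-FCS batch 1 the ratios of Psma5, Psmd6 and Psmd8 were 0.719, 0.719 and 0.693, inside 1.5-fold. Without NSC batch 1 those of Psma2, Psmd6 and Psmd8 were 0.766, 0.674 and 0.681. Psma2 was at 0.771 without ESC-FCS batch 2, and Psma5 at 0.357 and 0.775 without NSC batch 1 and 2.

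The genes that act with the proteasome were compared for reference. Of 24 such genes 21 were tested between ESC-FCS and ESC-2i, with 1 higher and 3 lower, against 19.1% and 26.2% of all genes. Between NSC and ESC-2i 21 were tested, with 6 higher and 4 lower, against 30.1% and 33.7%, and between NSC and ESC-FCS 20, with 6 higher and 1 lower, against 30.8% and 27.6%. Sem1, a small lid subunit outside the naming rule, was at 2.25, 2.34 and 4.02, 1.78-fold higher in NSC than in ESC-2i (1.26 to 2.51). Pomp, which matures the core, was at 2.69, 2.69 and 2.04.

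The least abundant members were Psmb9 and Psmb11 with 0 molecules, Psme2 with 1, Psmb8 with 2, Psme2b with 4, Psma8 with 18, Psmd10 with 20, Psmg3 with 27, Psmd9 with 29 and Psma3 with 34. Psmd9 and Psmd10 are chaperones of the base. Psme2 pairs with Psme1 in 1 activator ring, yet Psme1 had 147 molecules. The last 100 nt of Psme2 share all 71 words of 30 bases with Psme2b, so reads from either gene could align to both, and reads aligned to several places were removed before counting. The levels of Psme2 and Psme2b are uncertain for that reason. Among the abundant members, 81.7% of the words of the Psmd2 tail occur in the pseudogene Gm5422, 40.8% of those of Psma5 in Gm8394, 39.4% of those of Psmb1 in Trp53bp1 or Gm14830, and 16.9% of those of Psmb3 in pseudogenes such as Gm4950.

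In single cells every member sum was above 0. Per 10000 molecules, ESC-2i cells ran from 67.4 to 123.4 with a median of 90.2. ESC-FCS cells ran from 46.3 to 145.7 around 100.2, and NSC from 51.2 to 147.7 around 83.7. The variance between cells was 2.49, 1.41 and 1.80 times that of binomial sampling in ESC-2i, ESC-FCS and NSC. This multiple grows with the molecules per cell, so it does not rank populations of unlike depth. The standard deviation of the cell values, which includes counting error, was 15.3, 18.1 and 21.0. Psmb1 was seen in 33 of 33 ESC-2i cells, 31 of 33 ESC-FCS cells and 38 of 41 NSC.

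**Figure D4:**
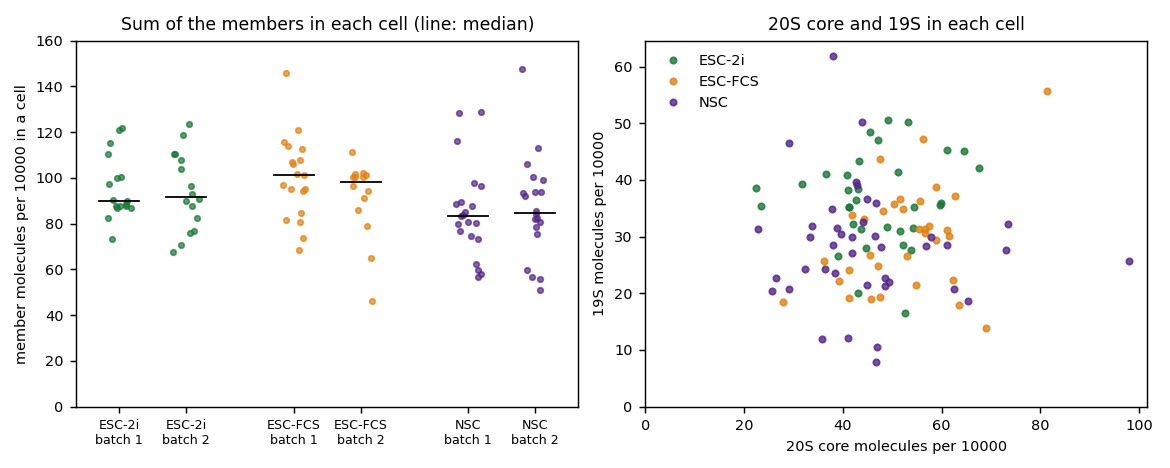
Left, the sum of the members in each cell, in molecules per 10000, by population and library batch with the median as a line. Right, the 20S core against the 19S particle in each cell; the sums overlap between populations, with medians of 90.2, 100.2 and 83.7.

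For variation between cells beyond technical noise, 1 member was called. The test of Brennecke and colleagues compares the squared coefficient of variation (CV2) of a gene with that of the ERCC spike-ins plus a margin of 0.25. With the adjusted p (Benjamini-Hochberg) required to be under 0.1, it called 1 of 34 members in ESC-FCS, 0 of 37 in ESC-2i and 0 of 20 in NSC, against 3.85%, 0.719% and 2.16% of all genes tested. At an unadjusted p below 0.05 the counts were 1, 0 and 0. Psmc1 was called in ESC-FCS, with a CV2 of 2.98, 2.47 times the technical value, at an adjusted p of 0.0189 by this test. It had 0 to 4 molecules per cell, and it was not called when either library batch was left out or with cells of at least 2000 molecules.

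Covariation between cells was weak. For the log2 of molecules per 10000 plus 1, the mean Pearson r over the 741 pairs of 39 members in ESC-2i was 0.045, against 0.010 over all pairs of genes past the same filter on mean counts. It was 0.065 against 0.032 in ESC-FCS and 0.030 against 0.021 in NSC. Cells of a batch share a library, and cells differ in depth. With cells thinned to 2000 molecules the values were -0.014, -0.010 and 0.012, against 0.002, 0.001 and 0.002 over all pairs of genes. In ESC-FCS the mean r was 0.126 in library batch 2 alone, against 0.065 over all pairs. In batch 1 alone it was 0.014, against 0.014. The 20S core and the 19S particle had an r of 0.315 over 33 ESC-FCS cells, 0.021 over 33 ESC-2i cells and -0.061 over 41 NSC. At these counts such values are no finding.

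Most members used 1 main PA site. Among 37 members with at least 50 molecules the main site held a median of 92.5% of the molecules, against 87.8% over 2755 genes. Of 35 such members whose main site lies in an annotated exon, 31 had AATAAA and 4 ATTAAA within the 30 bases before it, where 85.5% of all such sites had either. Both are the hexamers that direct cleavage and polyadenylation. For Psmb1, the most abundant member, and Psmb5, the catalytic subunit that was higher in ESC-FCS, the 30 bases that end at the site are shown with the hexamer in capitals, from GENCODE M21 transcripts on GRCm38.
Psmb1 main site, chr17:15475964-15475993, minus strand: gcacaagtttgttttATTAAAaagaatgta
Psmb1 second site, chr17:15475720-15475749, minus strand: tgtatgtaatgaaaAATAAAaccactaata
Psmb5 main site, chr14:54614119-54614148, minus strand: tggctatAATAAAtaatagtacctctttca

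Over all cells kept, the main site of Psmb1 held 88.7% of its molecules with the variant ATTAAA. The second site, 244 nt further on with AATAAA, held 9.22%. Psmb5 ended at a single site in all 227 molecules.

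A second site with at least 10% of the pair was used by 12 members with at least 50 molecules, and 3 of these are described for every population. The distal site of Psmd8, 341 nt beyond the proximal one, held 38.9% of 90 molecules in ESC-2i (28.8 to 49.7), against 45.7% of 35 in ESC-FCS and 25.0% of 16 in NSC. In 25 of the 35 cells with 2 or more molecules on the pair both sites were seen. Psmb7 sites lie 25 nt apart, with distal shares of 77.5%, 77.6% and 74.5%. Psmd1 has a site in an upstream exon 8581 nt before the distal one, which held 81.5%, 77.6% and 71.1%. Psmd1 overlaps Gm21972 on the same strand, so its counts are uncertain. The others were Psma5, Psmc2, Psmc6, Psmd5, Psmd7, Psmd11, Psmd12, Psme4 and Psmg1, with minor shares of 10.7% to 29.7%.
Psmd8 proximal site, chr7:29174533-29174562, minus strand: ggctggccttcAATAAAggcagattaacct
Psmd8 distal site, chr7:29174192-29174221, minus strand: tttgagccctctgtAATAAAtggtatgaat

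Few of the members tested shifted between sites, and in the comparisons with ESC-FCS the counts were near the share over all genes. A shift was called at 10 percentage points or more where each of the 4 pairings of library batches moved the same way, with at least 20 molecules on the pair in each population. Between ESC-FCS and ESC-2i, 3 of 29 members were called against 11.1% of 1585 genes, 2 to the distal site against 7.00% and 1 to the proximal site against 4.10%. Between NSC and ESC-2i it was 1 of 21 against 14.2% of 997, and between NSC and ESC-FCS 2 of 21 against 11.6% of 891, both to the distal site, where 8.19% of genes moved distally and 3.37% proximally. No member that met this molecule limit passed 20 points. Psmb1, the most abundant member, fell short of a call between NSC and ESC-2i at 9.73 points. Its distal share was 5.94% of 303 in ESC-2i (3.56 to 9.23), 10.6% of 179 in ESC-FCS and 15.7% of 134 in NSC (9.97 to 23.0). The ESC-2i and NSC intervals did not overlap, nor did the batches, at 4.52% and 7.43% against 22.2% and 8.06%. Members short of it in a comparison were not tested there, and larger differences occurred among them on few molecules. The distal share of Psmd12 was 9.23% of 65 in ESC-2i, 9.38% of 32 in ESC-FCS and 41.2% of 17 in NSC. That of Psmc3ip was 40.0% of 20, 72.7% of 11 and 0% of 6.

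The 5 members called were Psma2, Psmc6, Psmd11, Psme4 and Psmg1, and each call rests on few molecules. The distal site of Psmc6, a base ATPase, held 8 of 75 molecules in ESC-2i, against 1 of 32 in ESC-FCS and 5 of 24 in NSC, which is 10.7%, 3.12% and 20.8%. Its batches were at 10.0% and 11.1%, 0% and 7.69%, and 25.0% and 16.7%, with NSC highest. The distal site of Psma2 held 4.17%, 0% of 116 and 12.2%, and that of Psmd11, of the lid, 15.4% of 39, 31.8% of 22 and 36.4% of 11. For Psme4 the distal share was 91.5%, 80.6% and 93.8%, the proximal site being in an upstream exon 35096 nt before. Psmg1 was at 73.9% of 23, 91.2% of 34 and 77.8% of 9, on sites 16 nt apart of which the distal one has the hexamer. The intervals of the compared populations overlapped in the calls of Psmc6, Psmd11, Psme4 and Psmg1, and those of Psma2, from 0 to 3.13 for ESC-FCS cells and from 4.63 to 24.8 for NSC, did not, though its NSC batches were at 4.35% and 19.2%. The sequences show which sites of these members carry a hexamer, in capitals.
Psma2 proximal site, chr13:14625550-14625579, plus strand: tcacattttaaaaataatcatAATAAActg
Psma2 distal site, chr13:14625641-14625670, plus strand: agttgacttttggaaATTAAAtggtaaaat
Psme4 proximal site, chr11:30845224-30845253, plus strand: gataaccattggttgcattatgatagtaaa
Psme4 distal site, chr11:30880320-30880349, plus strand: acaatgtgtgattttaaaAATAAAaaagaa
Psmc6 proximal site, chr14:45348790-45348819, plus strand: tcttattaaaagtgAATAAAcatgtataag
Psmc6 distal site, chr14:45349656-45349685, plus strand: tgtttaAATAAAgacatcaaacttcagttt
Psmd11 proximal site, chr11:80471934-80471963, plus strand: agattctaAATAAAaggaaaaaggcttaca
Psmd11 distal site, chr11:80473213-80473242, plus strand: agatgagttccAATAAAataattttttttt
Psmg1 proximal site, chr16:95979958-95979987, minus strand: tgtattttattctggcttgggatgttttga
Psmg1 distal site, chr16:95979942-95979971, minus strand: ttgggatgttttgagagtAATAAAaatttt

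**Figure D5:**
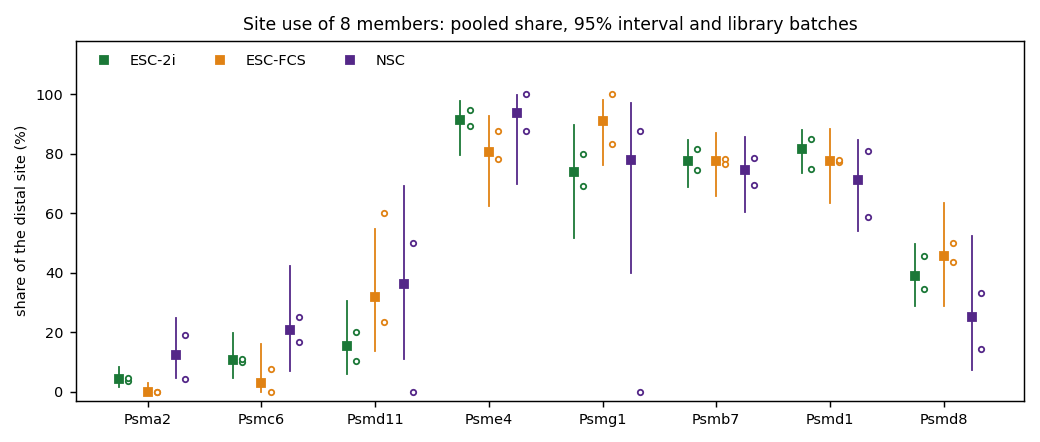
Share of the distal of the 2 most used sites, in percent, for 8 members in the 3 populations. Squares are pooled cells with 95% Clopper-Pearson intervals and open circles the library batches; Psmc6 lies between 3.12% in ESC-FCS and 20.8% in NSC, and Psmb7 near 77% in both ESC populations.

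Promoters of the members were searched for 2 motifs on both strands, in RefSeq sequence of GRCm38.p6 from 250 bases before to 50 after the start. TGANNNNGC, the core of the antioxidant response element through which Nfe2l1 and Nfe2l2 act, was in 57.8% of 45 promoters of 42 matched members, against 41.3% of 32851 promoters. CCAAT was in 33.3% against 37.4%. A match is a description of letters. Nfe2l1, known for raising proteasome genes when the proteasome is inhibited, was at 0.733, 0.573 and 0.988 in ESC-2i, ESC-FCS and NSC, and Nfe2l2 at 0.760, 0.353 and 0.198.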

How the data were processed

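BATSeq libraries were sequenced, aligned with GSNAP to GRCm38 and assigned to genes of Ensembl 73 by the authors, who removed reads aligned to several places, A-rich reads and internal priming, merged unique molecular identifiers at 1 mismatch and sites within 12 nt. HTSeq and R 3.0.2 stand in the submitters' processing notes. The counts deposited by the authors are molecules, and reads, per gene or site and cell, not normalized. Mitochondrial genes are in the table although their removal is stated. The gene table equals the sums of sites other than antisense ones in all but 4 entries.

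Levels are pooled molecules per 10000 on genes. Poisson, conditional binomial and Clopper-Pearson intervals are exact at 95% and cover counting error only. Variable genes were found by the Brennecke test rewritten in Python 3.11.15 (numpy, scipy, statsmodels), with a normalized mean above 0.5. Its p-values measure the spread between cells of 1 sample. Fold calls and this test were checked on simulated counts. For fold calls the first pass mark, set over all genes of that check, was missed in 1 of the 3 comparisons. It was lowered, then replaced, with that outcome known, by a mark on well-counted genes, which was met. At low counts the fold rule missed changed genes and called unchanged ones. Separate libraries were 48 ESC-FCS control cells (42 with at least 1000 molecules), an ESC-FCS pool and 2 ESC-2i pools. Library batches were assigned from the cell titles, as plate rows A to D and E to H. The paper states that each batch barcode marked 24 pooled cells, but its text does not name their wells.

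The members and lists were chosen with earlier results of these data known. Named were catalytic and induced beta genes, the 5 most and 10 least abundant members, members past 1.5-fold with batches apart, those nearest that limit, and members called for variation, for site use or for a second site; Psma6, Psmg4, Psme1 and Psme4 complete their groups. Alternatives changed cells, scaling, thresholds, reads for molecules, and library batches.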

Additional observations from a re-analysis of the deposited data

How the results depend on the processing

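Of 108 alternative values for shares and counts, 83 kept their direction and stayed within the interval or within 1.5 times the main value. With reads in place of molecules the member share was 103.4 in ESC-2i and 104.0 in ESC-FCS, 24 members were called between NSC and ESC-FCS, Psmg3 was at -0.76 (log2, ESC-FCS against ESC-2i) and Psmc3ip at 0.18 (NSC against ESC-2i). Per ERCC molecule 35 members were called between ESC-FCS and ESC-2i and 38 between NSC and ESC-FCS, and directions reversed for Psmc1 (0.42), Psmd4 (0.42) and Psmd13 (0.33) in the former and Psme3 (-0.46) in the latter, since all genes shift by 1.04 and -1.34. At 2-fold 4, 5 and 1 members were called in the comparisons of ESC-FCS with ESC-2i, NSC with ESC-2i and NSC with ESC-FCS. With at least 50 molecules 7 were called between NSC and ESC-2i. Median-ratio scaling called 13 and a minimum of 1 molecule 15 between NSC and ESC-FCS. Without each library batch in turn, the counts ranged from 11 to 15, 8 to 21 and 7 to 13. Variable members in ESC-FCS were 0 with a CV2 margin of 0.5, 0 with cells of at least 2000 molecules, and 0 to 0 without either batch. Shifts of site use were 0 in all 3 comparisons at 20 points, among members with at least 20 molecules on the pair in each population. At 10 molecules they were 3 between NSC and ESC-2i and 4 between NSC and ESC-FCS. Between NSC and ESC-2i they were 2 with no condition on batches, 0 with cells of at least 2000 molecules and 0 with no filter on cells. Where not stated, the cause was not tested. No paired analysis was possible because well numbers only name the cells and populations were compared without a test. Depth limits members with few molecules, such as Psma3, whose intervals are wide.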
